A study of Mus musculus with 8 samples.

Results

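The interferon response genes described here are Irf7, Irf9, Stat2, Isg15, Bst2, Ifit3, Rtp4, Usp18 and Ly6a, 9 of the 15653 genes in the deposited count matrix. They were chosen by symbol, and all 9 were found. They were read in 5′ single-cell RNA libraries of double-negative (DN) thymocytes, the immature cells of the thymus with neither CD4 nor CD8. The wild type (WT) was C57BL/6J, and the other mice are labelled GSK3B Ser389Ala KI, a knock-in (KI) that replaces a serine of the kinase GSK3β with alanine. DN cells were enriched with magnetic beads and sorted as DN3 (CD44-CD25+), the stage of β chain rearrangement, or as DN4 (CD44-CD25-), the stage after it. No treatment is named for either genotype, and the age and number of the mice are not given in the sources used here. The DN3 libraries held 2885 cells in WT and 3298 in KI, and the DN4 libraries 1477 and 2577, with 1 library per group.

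With 1 library per group there is no replicate and no test, all intervals below are 95% intervals of counting error alone, and the genotype cannot be told apart from the library. The libraries held between 16411164 and 30402236 unique molecular identifiers (UMIs, counts of distinct molecules), with medians of 5495 to 9345 per cell. A level is given as UMIs of a gene per 1e6 UMIs of the summed cells (CPM). Cells were grouped by the cluster numbers the authors deposited. Clusters 0 and 1 are pre-selection DN3-like cells, with 8427 UMIs of Il2ra, the CD25 gene, and 8053 of the pre-T cell receptor gene Ptcra in WT. They were summed because they divide by genotype: in DN3, cluster 1 had 2146 cells of WT but 54 of KI, and cluster 0 had 109 and 2415. Clusters 3 and 4, of dividing cells, occurred in both sorts, cluster 6 in DN3, and cluster 2 (γδ T-like, with 2106 UMIs of the δ chain gene Trdc in WT) and cluster 5, which was left unnamed, in DN4. In all, 54 barcodes occurred in more than 1 library and 73 cells (0.713%) were called doublets.

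Interferons are secreted proteins that warn cells of infection. Type I interferons signal through receptor-bound kinases to a complex that holds STAT2 and IRF9, which binds the interferon-stimulated response element (ISRE) near its target genes. IRF7 is itself induced and amplifies the production of type I interferon. Isg15 encodes a ubiquitin-like modifier, Usp18 the protease that removes it and also damps the receptor, Bst2 the membrane tether tetherin, Ifit3 a partner in an antiviral RNA-binding complex and Rtp4 a receptor transport protein. Ly6a encodes the surface protein Sca-1.

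The promoters show which members carry the element that the STAT and IRF9 complex binds. RefSeq promoters of build GRCm38.p6 were matched for Isg15, Bst2, Stat2, Ifit3, Irf7 and Irf9, and the bases before the start site were searched on both strands for the ISRE core GAAANNGAAA (TTTCNNTTTC when read on the other strand) and for the STAT site TTCNNNGAA. Rtp4, Usp18 and Ly6a were not matched. The 4 members with an ISRE core are shown 5′ to 3′ on the strand of the gene, ending at the base before the start site, with the core in capitals.
Isg15 (chr4:156200819-156201068, minus strand): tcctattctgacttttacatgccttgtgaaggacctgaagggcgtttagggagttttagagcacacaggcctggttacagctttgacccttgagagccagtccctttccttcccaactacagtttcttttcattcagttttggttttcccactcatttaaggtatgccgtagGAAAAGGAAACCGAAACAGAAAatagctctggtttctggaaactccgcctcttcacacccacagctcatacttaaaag
Bst2 (chr8:71537473-71537722, minus strand): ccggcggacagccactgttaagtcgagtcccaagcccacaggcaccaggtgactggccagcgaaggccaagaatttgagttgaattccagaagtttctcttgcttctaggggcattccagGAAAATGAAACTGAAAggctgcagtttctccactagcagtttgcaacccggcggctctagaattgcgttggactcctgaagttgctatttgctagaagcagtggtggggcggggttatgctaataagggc
Stat2 (chr10:128270248-128270497, plus strand): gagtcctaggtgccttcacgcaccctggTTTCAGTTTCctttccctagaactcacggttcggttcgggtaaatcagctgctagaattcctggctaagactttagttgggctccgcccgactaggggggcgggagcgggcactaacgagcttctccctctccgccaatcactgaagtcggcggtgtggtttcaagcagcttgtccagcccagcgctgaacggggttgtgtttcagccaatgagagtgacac
Ifit3 (chr19:34583279-34583528, plus strand): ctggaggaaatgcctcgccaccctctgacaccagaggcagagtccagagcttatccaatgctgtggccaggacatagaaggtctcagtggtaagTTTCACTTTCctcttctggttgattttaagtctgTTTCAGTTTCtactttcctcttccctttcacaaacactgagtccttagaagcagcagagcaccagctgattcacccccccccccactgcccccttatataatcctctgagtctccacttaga
In Isg15 3 overlapping cores began 78, 72 and 66 bases before the start site. Bst2 held 2 overlapping cores, and a STAT site that began 136 bases before the start site overlapped the first of them. Stat2 held 1 core and Ifit3 held 2, both read on the other strand. No core was in the windows of Irf7 and Irf9, which says only that these letters are not there. The Irf9 windows, chr14:55603735-55603984 and chr14:55604329-55604578, lay inside the gene as annotated from 55603571, and the Irf7 window overlapped Irf7 exons. Bases before the annotated start of Irf9 were not searched. For scale, 978 of 32851 promoters of the same length (2.98%) held an ISRE core, and 7.02% held the STAT site. A match of letters is a description and not a binding site.

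In the pre-selection DN3-like cells of clusters 0 and 1, most members were lower in KI than in WT. These profiles summed 2255 WT and 2469 KI cells. Irf7 was read at 55.4 CPM in WT against 31.4 in KI, a log2 ratio of KI over WT of −0.82 (−1.0 to −0.64). The genes of the complex that binds the ISRE had smaller ratios, with Irf9 at 42.0 and 36.0 CPM (−0.22, −0.41 to −0.04) and Stat2 at 23.4 and 20.3 (−0.20, −0.45 to 0.04). The interval of Stat2 includes no difference.

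Among the induced effectors, Isg15 was at 181 CPM in WT against 116 in KI (−0.65, −0.74 to −0.55). Bst2 was at 802 and 637 CPM (−0.33, −0.37 to −0.29), and Rtp4 at 57.1 and 44.5 (−0.36, −0.52 to −0.20). All 3 intervals lay below no difference, although only Isg15 was 1.5-fold lower. Usp18, the negative regulator, was at 21.1 and 14.1 CPM (−0.58, −0.86 to −0.30), and Ly6a, the surface protein gene, at 30.4 and 18.3 (−0.73, −0.97 to −0.49). Ifit3 went the other way, with 27 UMIs in WT and 49 in KI (0.89, 0.19 to 1.63), a level of 2.11 and 3.91 CPM.

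A feature was called apart in a comparison when it had at least 20 CPM in either profile and a ratio of at least 1.5-fold. In clusters 0 and 1, 8 of the 9 members had at least 20 CPM, and 3 of them (Irf7, Isg15 and Ly6a) were called lower and 0 higher. Of all 5964 features with at least 20 CPM, 2.25% were called lower and 1.06% higher. Usp18 lay just outside the threshold and Isg15 just inside it: with TMM scaling, which sets the libraries' relative depth from the bulk of the genes, Usp18 was called (−0.59), and in cells the authors called G1, Isg15 was not (−0.57). Usp18 and Ly6a reached 20 CPM only through WT. The median log2 ratio of the 8 members was −0.47, beside −0.01 for all features. Summed over the 9 members, UMIs were 15568 in WT and 11549 in KI (−0.40, −0.43 to −0.36). Bst2 alone gave 10278 and 7987 of these, so the sum follows mostly that gene here. In every group the sum weighs the members by their levels.

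**Figure D1:**
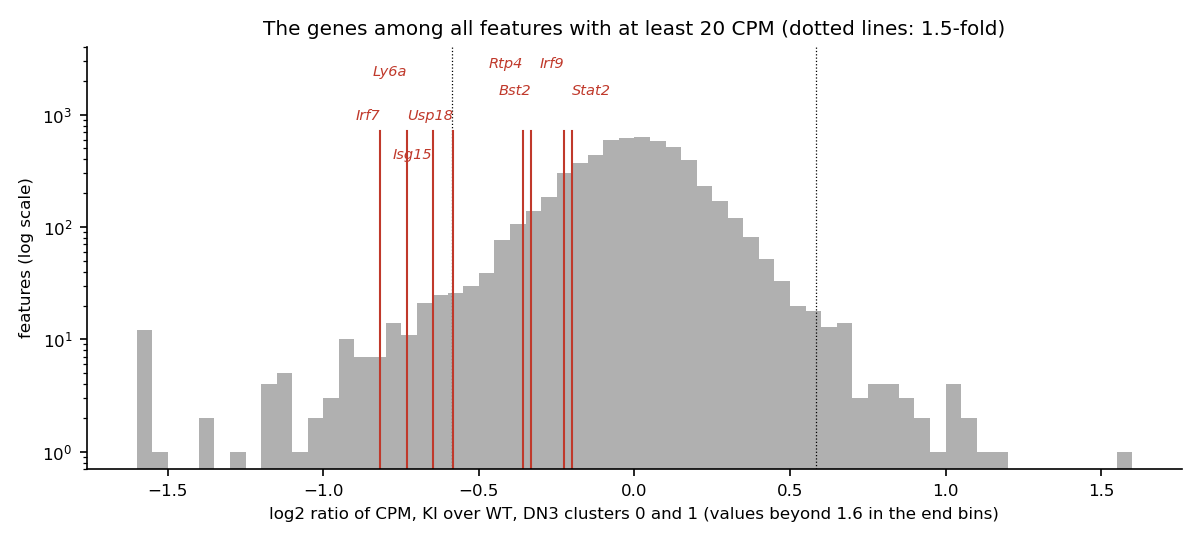
Number of features (log scale) by log2 ratio of CPM, KI over WT, in clusters 0 and 1 of DN3, for the 5964 features with at least 20 CPM in either profile. Red lines mark the 8 members that reached that level, all of them below 0, with Irf7 at −0.82 the lowest.

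Within the KI library a small set of cells carried much of the signal of several members. Of the 2469 KI cells, the 54 that the authors placed in cluster 1, the cluster of nearly all WT cells, carried 48 of the 49 UMIs of Ifit3. They also carried 50.8% of the UMIs of Usp18, 31.4% of Isg15 and 27.7% of Irf7, although they made up 2.19% of the cells. Their share was smaller for Rtp4 (18.3%), Ly6a (15.7%), Irf9 (7.54%), Stat2 (5.10%) and Bst2 (4.44%). These cells were singled out after their values were seen, and since the clusters were made from the same cells, what follows is a description.

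The contrast between the KI cells of clusters 1 and 0 was large. Isg15 was at 1658 CPM in cluster 1 and 81.1 in cluster 0, Irf7 at 398 and 23.2, and Usp18 at 329 and 7.09. Rtp4 was at 373 and 37.2 CPM, Ly6a at 131 and 15.8, Irf9 at 124 and 34, Stat2 at 47.5 and 19.7, and Bst2 at 1297 and 622. All 9 members were called higher in cluster 1, where 11.6% of 6243 features were called higher and 9.16% lower. Stat2, Ifit3, Usp18 and Ly6a reached 20 CPM only in cluster 1, so they could be called only higher. Log2 ratios ran from 1.06 (0.90 to 1.21) for Bst2 to 5.53 (5.09 to 5.98) for Usp18 and, on 1 UMI in cluster 0, 11.07 (8.52 to 16.40) for Ifit3. For each of the 9 members this ratio was larger in size than that between the genotypes in clusters 0 and 1.

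Other genes of the pathway lists stood out in the same 54 cells. Of the list of other interferon-induced genes, 46 of 61 had at least 20 CPM and 44 of these were called higher and 0 lower. Of these 46, 23 reached 20 CPM in only 1 of the profiles, and of the 23 that did so in both, 21 were called higher. Ifit1, a partner of Ifit3, was at 471 CPM in cluster 1 and 3.26 in cluster 0, the radical enzyme gene Rsad2 at 321 and 4.32, Oasl2 at 259 and 7.09 and the antiviral GTPase gene Mx1 at 91.3 and 0.571. Among the guanylate-binding and related GTPases of the interferon gamma response 13 of 14 were called higher, 7 of them among the 8 with 20 CPM in both profiles. Among sensors and adaptors of nucleic acids 7 of 9 were, 5 of them among 7 with 20 CPM in both. In the MHC class I path 6 of 13 were called higher (0.40), and among receptors and kinases 2 of 7, with 1 lower (0.28). Of the 6 receptors and kinases with 20 CPM in both profiles, 1 was called higher and 1 lower. Negative regulators other than Usp18 had 0 of 5 called (−0.13).

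Genes that set KI apart from WT in cluster 0 and 1 cells, picked after their values were seen, had KI levels in the 54 cells. Cd96, which encodes a surface receptor, had 0 UMIs in them, with an upper limit of 13.5 CPM. It was at 2.61 CPM in KI cluster 0 and 79.9 in WT cluster 1. Mid1 and Arhgap31 also had 0 UMIs, beside 37.0 and 29.0 CPM in WT cluster 1. Apobec3 was at 62.1 CPM (36.2 to 99.4) in the 54 cells, 44.8 in KI cluster 0 and 201 in WT cluster 1. Their Il2ra was at 789 CPM and their Ptcra at 661, beside 643 and 621 in KI cluster 0. None of the 54 had a barcode that also occurred in WT DN3, 50 of them were called G1 by the authors, and their median depth was 4759.5 UMIs, beside 4865 in KI cluster 0.

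In WT the same split gave no such subset, since cluster 1 held 95.2% of the WT cells of the pair and at least 95.9% (Irf9) of the UMIs of each member, with all 27 of Ifit3. By cells rather than clusters the libraries were alike: the 5% of cells with the most UMIs of the 8 members other than Bst2 held 42.5% of those UMIs in WT and 44.2% in KI, at 2000 UMIs per cell. The 109 WT cells of cluster 0 were lower than WT cluster 1 for Isg15 (69.5 and 184 CPM), Irf7 (21.4 and 56.4) and Rtp4 (21.4 and 58.2), with intervals of the log2 ratio that lay above 0 (1.41, 0.85 to 2.03, for Isg15). For Irf9, Stat2, Bst2, Usp18 and Ly6a the intervals included 0. Of the 8 WT members with at least 20 CPM, 5 were called higher in cluster 1, of which Usp18 and Ly6a reached 20 CPM only there, where 6.63% of 6258 features were called higher and 9.08% lower. These 109 cells were shallow, with a median of 2992 UMIs beside 5525 in cluster 1, and the part of depth was not tested.

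With the 54 cells left out, the remaining KI cells were further below the summed WT cells. Against all WT cells of clusters 0 and 1, the KI cells of cluster 0 alone gave log2 ratios of −1.58 for Usp18, −1.25 for Irf7, −1.16 for Isg15, −0.94 for Ly6a, −0.62 for Rtp4 and −0.53 for the sum of the members. For Ifit3 the ratio turned to −4.69 on a single KI UMI. WT cells high in the members stayed in that comparison, so it leaves out such cells on 1 side only. In both libraries the 1% of cells with the largest share of member UMIs among their UMIs, Bst2 included, were then left out. This gave −1.15 for Usp18, −0.90 for Irf7, −0.81 for Isg15, −0.42 for the sum and −1.29 for Ifit3. Ifit3 was thus higher in KI only with its few richest cells included, and the other 8 members were below 0 in each of these comparisons.

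**Figure D2:**
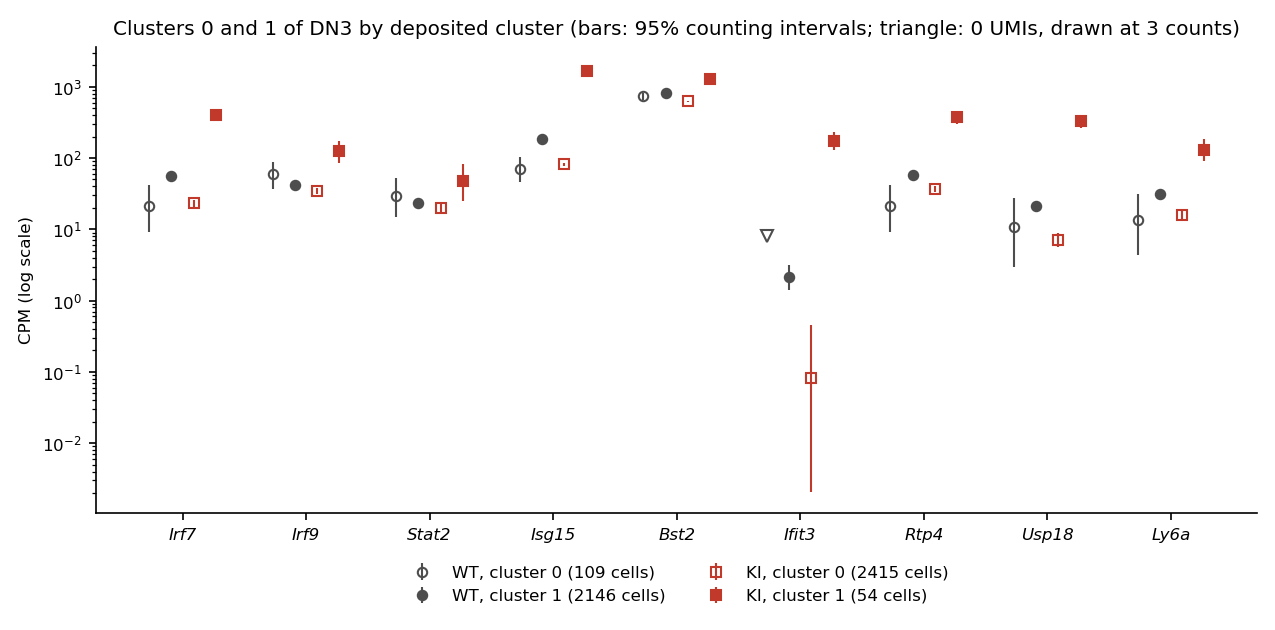
Level of each member (CPM, log scale) in clusters 0 and 1 of DN3, by library, with 95% counting intervals and a triangle at 3 counts where no UMI was seen. The filled squares, the 54 KI cells of cluster 1, lie highest for all 9 members, and the open squares, the KI cells of cluster 0, lie below the filled circles of WT cluster 1 for all 9.

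Cell by cell, the lower KI level was seen as fewer cells with a UMI. To compare cells at 1 depth, each was thinned to 2000 UMIs at random, which left out 21 WT and 37 KI cells of clusters 0 and 1. Isg15 was then seen in 20.2% of cells in WT (exact binomial interval, 18.6 to 22) against 14.7% in KI (13.3 to 16.2). Irf7 was seen in 8.42% (7.30 to 9.64) and 5.84% (4.94 to 6.85), and Ly6a in 5.28% and 2.59%. Bst2 was seen in 74.4% (72.6 to 76.2) and 68.9% (67.0 to 70.8). The shares of Irf9 (7.61% and 7.11%), Stat2 (4.61% and 4.03%), Rtp4 (7.74% and 7.24%) and Usp18 (3.27%, 2.57 to 4.09, and 2.10%, 1.57 to 2.75) had overlapping intervals. Free RNA was not gauged in the DN3 libraries. In DN4, Ccl5, a chemokine gene seen in 7.74% of WT and 7.67% of KI cells of cluster 5, was seen in 0 of 492 and 0 of 1157 cells of clusters 3 and 4. A floor of 3 cells is 0.61% and 0.259% of these. Since few cells had Ccl5 even in cluster 5, it is a weak gauge of free RNA.

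Cells with a UMI of one member more often had Isg15 too. In WT, 52.7% of the 188 cells with Irf7 (45.3 to 59.97) also had Isg15, beside 17.3% of the 2046 cells without Irf7 (15.6 to 19.0). In KI it was 31.0% of the 142 cells with Irf7, beside 13.7% of the 2290 without, and in the KI cells of cluster 0 alone 21.3% of 122 and 13.1% of 2256, with intervals of 14.4 to 29.7 and 11.7 to 14.5. Rtp4 likewise marked cells with Isg15, in 47.4% of WT cells with it and 17.95% without. Leaving aside Bst2, which most cells had, 3 or more of the other 8 members were seen in 104 of 2234 cells in WT (4.66%, 3.82 to 5.61) against 65 of 2432 in KI (2.67%, 2.07 to 3.39). Of those 65 KI cells 27 were among the 54 of cluster 1 and 38 among the 2378 of cluster 0 (1.598%).

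Ifit3 showed the sparsest distribution of all members. Without thinning, it was seen in 10 of 2146 WT cells of cluster 1 with 27 UMIs, in 12 of the 54 KI cells of cluster 1 with 48 and in 1 of 2415 KI cells of cluster 0. In DN4 it lay mainly in the γδ T-like cluster 2, in 17 of 595 WT cells and 37 of 976 KI cells. Of the bases of its longest transcript, taken as overlapping stretches of 50, 51.2% also occur in Ifit3b, so reads from that part can belong to either gene.

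**Figure D3:**
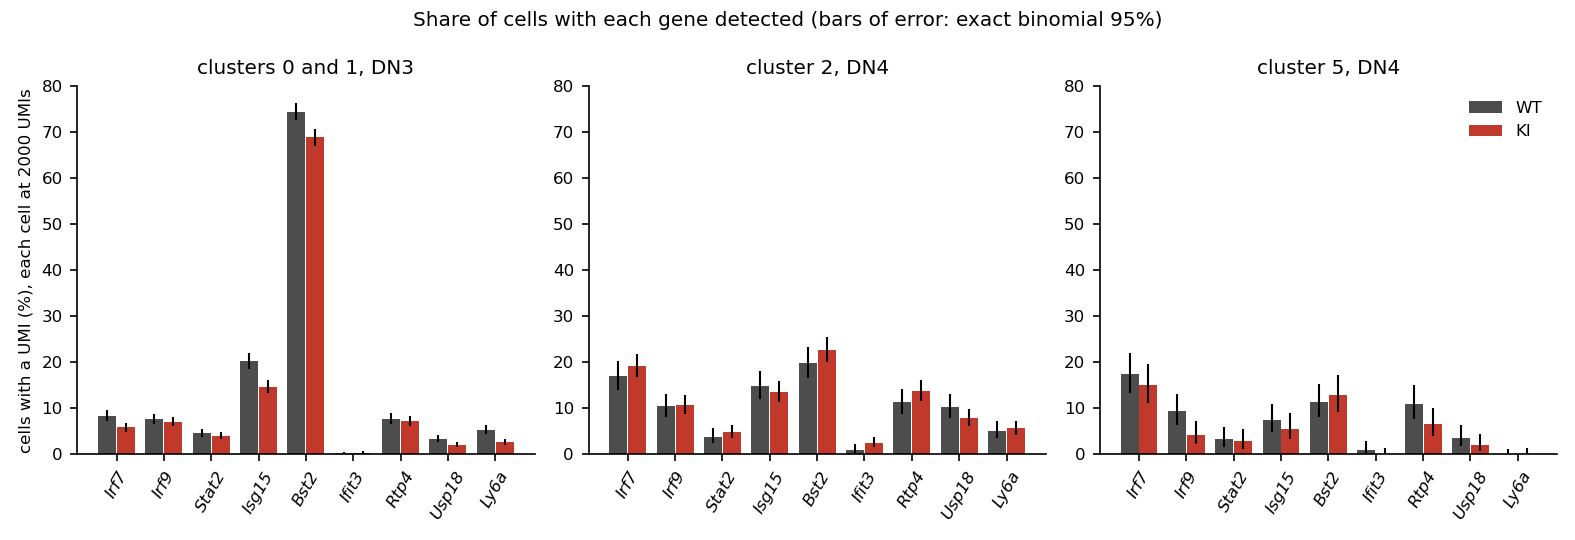
Share of cells (percent) with at least 1 UMI of each member after thinning each cell to 2000 UMIs, in WT (grey) and KI (red), with exact binomial 95% intervals. In clusters 0 and 1 of DN3 Isg15 stood at 20.2% in WT and 14.7% in KI, while in the γδ T-like cluster 2 it stood at 14.9% and 13.5% with overlapping intervals.

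Dividing cells of the DN3 sort, clusters 3 and 4, also had lower members in KI, from 309 WT and 485 KI cells. Isg15 was at 47.5 CPM in WT against 30.9 in KI (−0.62, −0.85 to −0.39) and Ly6a at 23.1 and 12.1 (−0.93, −1.28 to −0.57). These were called lower, 2 of the 3 members with at least 20 CPM (Ly6a only through WT), as were 1.97% of 5273 features, with 0.721% called higher. Bst2, the third, was at 280 and 263 CPM (−0.09, −0.17 to 0.00). At lower levels, Irf7 was at 10.9 and 4.70 CPM (−1.21, −1.78 to −0.65) and Irf9 at 11.6 and 4.70 (−1.31, −1.87 to −0.76), so that in these cells Irf9 was as far apart as Irf7. Intervals of Stat2, Rtp4 and Usp18 included no difference, and Ifit3 had 0 UMIs in WT and 1 in KI. The sum of the members was at −0.24 (−0.32 to −0.17).

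In cluster 6 of DN3 Irf9 was at 14.2 CPM in WT against 7.20 in KI (−0.98, −1.83 to −0.16) and Isg15 at 97.0 and 74.5 (−0.38, −0.65 to −0.11). Rtp4, at 21.8 and 14.4 CPM and so at 20 only in WT, was the 1 member called lower of the 4 with at least 20 CPM, where 2.85% of 5444 features were called lower and 2.22% higher. Its interval reached 0 (−1.21 to 0.00). Irf7 (0.28, −0.39 to 0.95), Ly6a (0.13, −0.41 to 0.67) and Bst2 (−0.06, −0.19 to 0.06) had intervals that included no difference. The sum was at −0.14 (−0.24 to −0.04), but in the 75 WT and 68 KI cells called G1 it was at −0.54 and Isg15 at −1.06.

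In DN4 the dividing cells of clusters 3 and 4 (493 WT and 1160 KI cells) again had lower members in KI. Isg15 was at 48.7 CPM in WT against 37.1 in KI (−0.39, −0.55 to −0.23), Ly6a at 20.3 and 11.8 (−0.78, −1.04 to −0.51) and Usp18 at 11.4 and 6.12 (−0.90, −1.26 to −0.53). Irf9 was at −0.75 (−1.14 to −0.35) and Rtp4 at −0.56 (−0.84 to −0.28), both under 20 CPM. Irf7 was at 10.1 and 8.36 CPM (−0.27, −0.62 to 0.09), which is no difference beyond counting error, and Bst2 at 241 and 227 (−0.08, −0.15 to −0.02; with TMM scaling −0.012, −0.08 to 0.06). Of the 3 members with at least 20 CPM, Ly6a, at 20 CPM only in WT, was called lower, where 2.39% of 5149 features were called lower and 0.447% higher. TMM scaling moved the share of calls that were higher from 15.8% to 27.1% here. The sum was at −0.21 (−0.27 to −0.16).

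Ly6a had ratios of −0.73, −0.93 and −0.78 in clusters 0 and 1, in clusters 3 and 4 of DN3 and in those of DN4, but 0.13 (−0.41 to 0.67) in cluster 6 and −0.04 (−0.39 to 0.32) in cluster 2, and it was not seen in cluster 5. It had 0 UMIs in the 324 WT and 328 KI cells there, while in cluster 2 of the same libraries it was at 31.2 and 30.5 CPM. Within cluster 5 its relatives Ly6e and Ly6c2 had 749 and 14 UMIs in WT and 677 and 9 in KI. Some 10.0% of 50-base stretches of its transcript also occur in other genes of the family, such as Ly6c1, which had 1 UMI in cluster 5 in each library.

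Cluster 5 had lower members in KI, together with many other features. Irf7 was at 108 CPM in WT against 79.2 in KI (−0.44, −0.80 to −0.09), Isg15 at 64.1 and 46.0 (−0.48, −0.95 to −0.02), and Usp18 at 21.8 and 8.49 (−1.36, −2.44 to −0.38) on 36 and 12 UMIs. Irf9, Rtp4, Stat2 and Bst2 had ratios of −0.50, −0.49, −0.64 and −0.19 with intervals that included 0. Usp18, at 20 CPM only in WT, was the 1 of 6 members called lower, in a comparison where 7.83% of 6210 features were called lower and 2.74% higher. With TMM scaling Irf7 (−0.34, −0.69 to 0.01) and Isg15 (−0.37, −0.84 to 0.08) had intervals that included no difference, the median of all features shifted by 0.10 and the share of calls that were higher moved from 25.9% to 45.1%. The sum was at −0.45 (−0.63 to −0.27).

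The γδ T-like cluster 2 was the exception, with 595 WT and 976 KI cells. Stat2 was at 15.9 CPM in WT against 24.4 in KI (0.62, 0.16 to 1.09), Rtp4 at 68.6 and 86.5 (0.33, 0.11 to 0.56) and Bst2 at 146 and 174 (0.25, 0.10 to 0.41), each higher in KI. Irf7 was at 107 and 116 CPM (0.12, −0.07 to 0.30), Isg15 at 136 and 122 (−0.16, −0.33 to 0.02) and Usp18 at 50.6 and 47.4 (−0.09, −0.37 to 0.19). None of the 9 had an interval below 0. Of the 8 members with at least 20 CPM, Stat2, which reached it only in KI and so could be called only higher, was called higher and 0 lower, where 1.17% of 5919 features were called higher and 3.75% lower. The sum was at 619 and 664 CPM (0.10, 0.02 to 0.18).

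**Figure D4:**
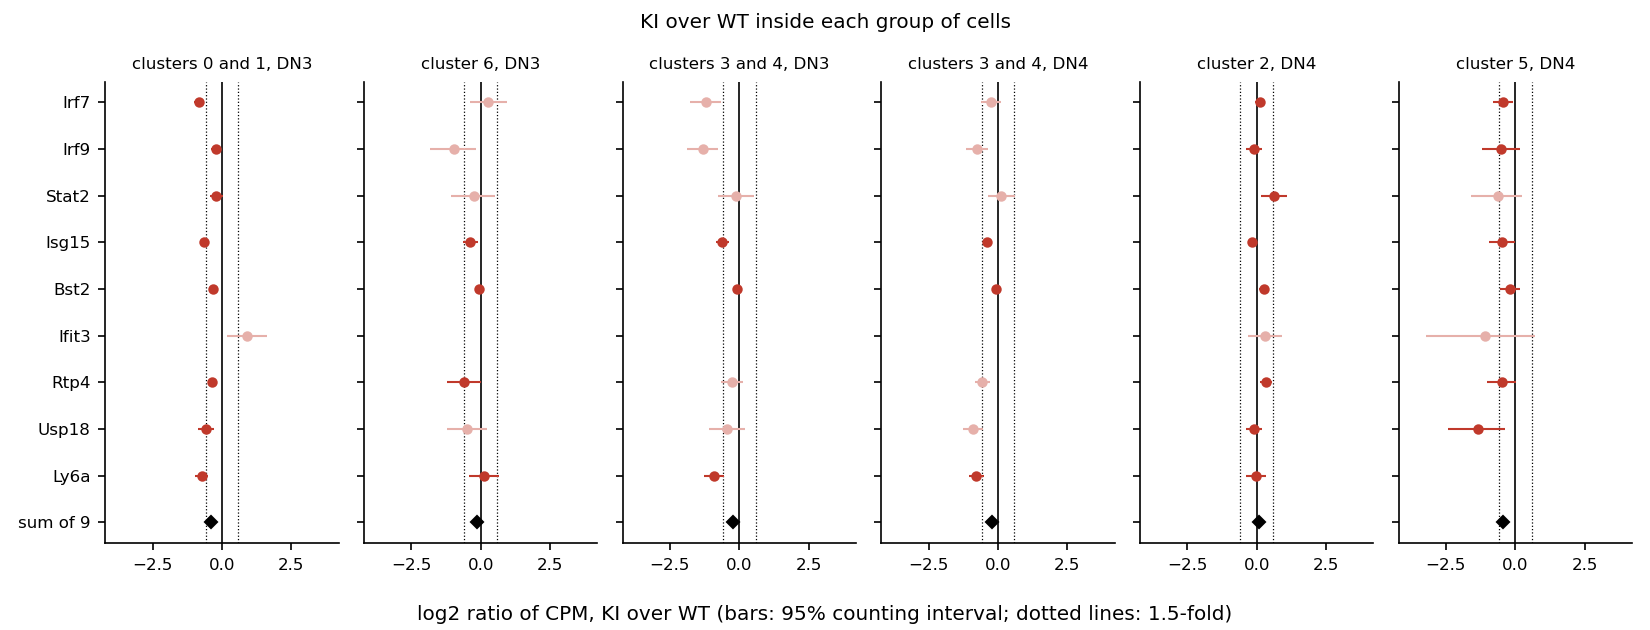
Log2 ratio of CPM, KI over WT, of each member in 6 groups of cells, with 95% counting intervals; pale points are members under 20 CPM in both profiles, members with under 5 UMIs in both or 0 in either are not drawn, and the diamond is the sum of the 9. The diamond lies below 0 in 5 groups and at 0.10 in cluster 2.

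Over whole libraries, the difference between genotypes partly followed which cells each library held, more for some members than for others. In DN3 the sum of the members was at 891 CPM in WT against 651 in KI (−0.45, −0.48 to −0.42), and the KI levels weighted by the cluster makeup of WT gave −0.35. In DN4 Irf7 was at 42.7 and 30.7 CPM (−0.48, −0.62 to −0.34), but with the makeup of WT it was at −0.08. Clusters 2 and 5, where Irf7 was highest, gave 22.7% and 10.1% of the UMIs in WT DN4 and 16.8% and 4.65% in KI DN4. Rtp4 moved in the same way, from −0.33 to −0.08, while Isg15 went from −0.40 to −0.32 and Ly6a from −0.53 to −0.57. Bst2 went from 0.04 to −0.08, and the sum of the members in DN4 moved little, from −0.19 to −0.15. In the whole DN4 libraries 2 of the 7 members at 20 CPM or more (Irf9 and Usp18) were called lower, where 4.01% of 5592 features were called lower and 0.536% higher. Both reached 20 CPM only in WT, and with TMM scaling neither was called (−0.51 and −0.50). TMM shifted the median of all features by 0.11 and the share of calls that were higher from 11.8% to 36.6%.

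Each member had its own order of levels across the groups of cells. Bst2 was highest at 802 CPM in WT against 637 in KI in clusters 0 and 1, then came 391.9 and 375 in cluster 6, 280 and 263 in clusters 3 and 4 of DN3, 241 and 227 in those of DN4, 146 and 174 in cluster 2, and 94.3 and 82.8 in cluster 5. Neighbours in this order had intervals that did not overlap within either genotype. Irf7 was ordered otherwise, highest in clusters 2 (107 and 116) and 5 (108 and 79.2), then in clusters 0 and 1 (55.4 and 31.4), and lowest in clusters 3 and 4, between 4.70 and 10.9. In WT the levels of Irf7 in clusters 2 and 5 did not differ beyond counting error. Usp18 was highest in cluster 2 (50.6 and 47.4), and Isg15 highest in clusters 0 and 1 in WT (181) but in cluster 2 in KI (122, with 116 in clusters 0 and 1, intervals overlapping).

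**Figure D5:**
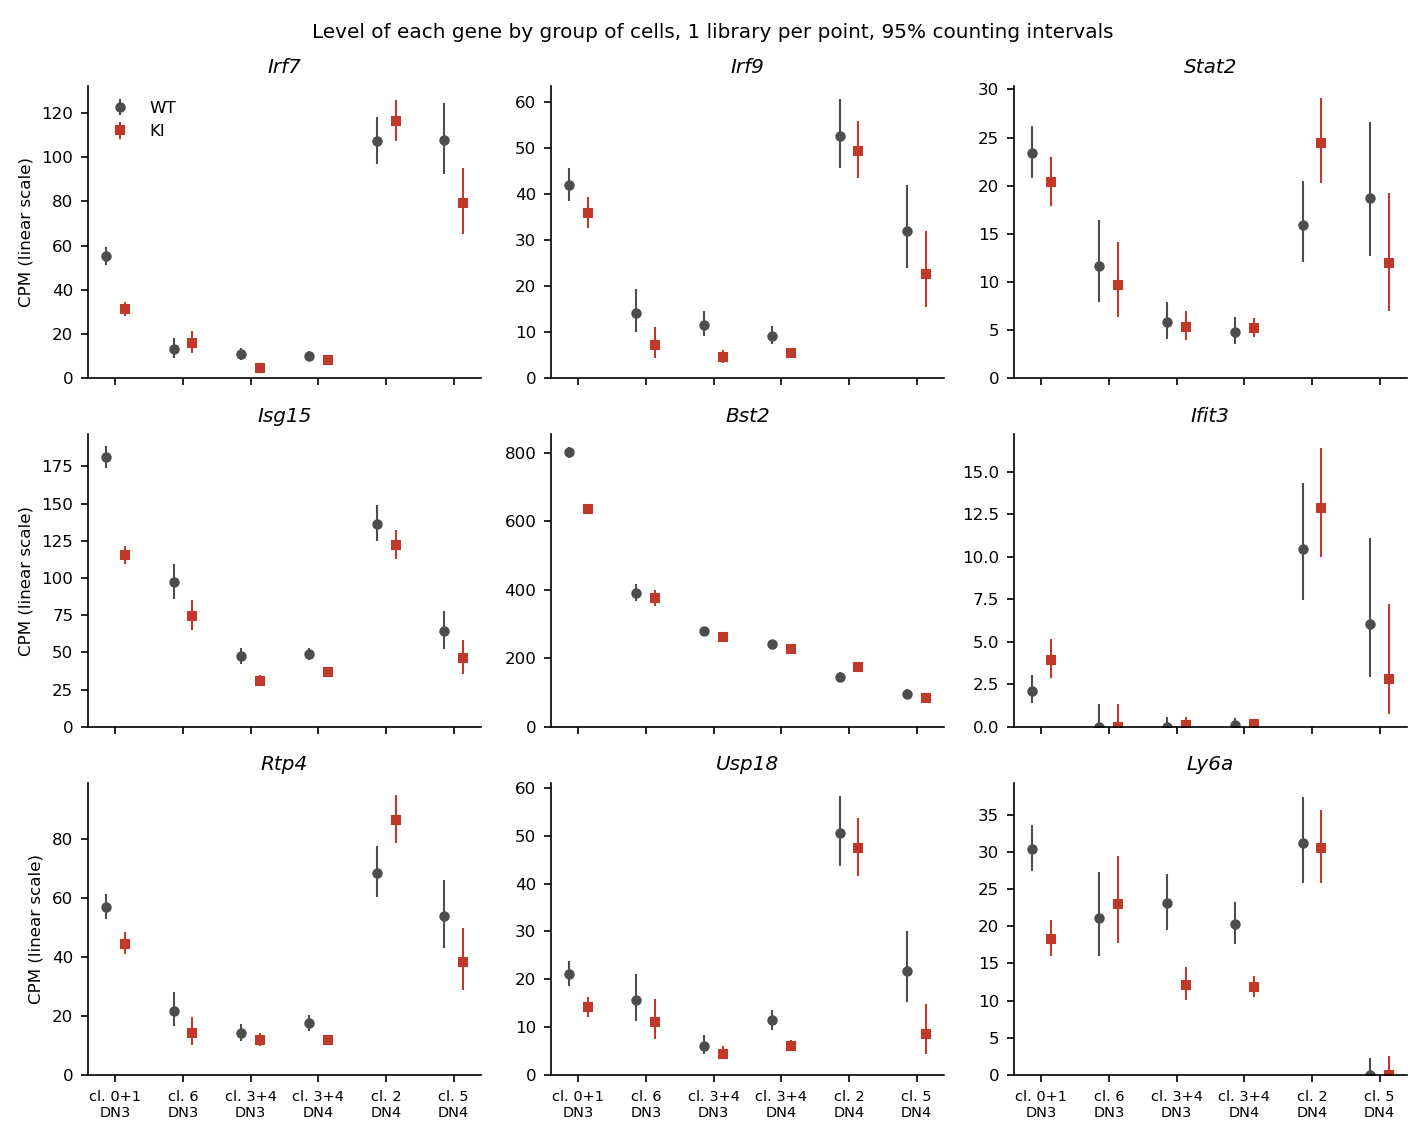
Level of each member (CPM, linear scale from 0) in 6 groups of cells, WT as grey circles and KI as red squares, with 95% counting intervals; each point is 1 library. Bst2 goes from 802 CPM in clusters 0 and 1 of WT to 94.3 in cluster 5, while Irf7 is highest in clusters 2 and 5.

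The scale matters for dividing cells, which hold more RNA. Per 100 cells, Bst2 had 456 UMIs in WT and 323 in KI in clusters 0 and 1, and 592 and 532 in clusters 3 and 4 of DN3, so it was lower there in CPM but not in UMIs per cell. Isg15 had 103 UMIs per 100 WT cells in clusters 0 and 1 and 101 in clusters 3 and 4. Irf7 was lower in dividing cells on both scales, with 31.5 and 22.98 UMIs per 100 WT cells.

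Across the 19 profiles of at least 50 cells that 1 cluster and 1 library gave, most members followed each other. The profiles share libraries, and the one of the 54 KI cells is an extreme point. Pearson's r of log2(CPM + 1) was 0.94 for Irf7 and Rtp4, 0.93 for Irf9 and Stat2 and 0.89 for Isg15 and Usp18. Bst2 and Ly6a had r of 0.03 and 0.04 to Irf7, but 0.56 and 0.54 to Isg15 and 0.63 to each other. By Spearman's rho Irf7 and Ly6a were at 0.38, Isg15 and Ly6a at 0.65, and Bst2 and Ly6a at 0.34. The 5 genes most like the summed members, of 5621 with a mean of at least 20 CPM, were Lgals3bp (0.93), Ogfr (0.93), Rraga (0.92), March5 (0.92) and Dtx3l (0.91). By Spearman's rho only March5 stayed among the first 5.

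Between the dividing cells of the sorts, DN4 and DN3 clusters 3 and 4, a few members differed. In WT, Usp18 was at 6.11 CPM in DN3 and 11.4 in DN4 (log2 ratio of DN4 over DN3 0.90, 0.37 to 1.45) and Bst2 at 280 and 241 (−0.22, −0.30 to −0.13). In KI, Irf7 was at 4.70 and 8.36 CPM (0.83, 0.36 to 1.33), Isg15 at 30.9 and 37.1 (0.26, 0.07 to 0.46) and Bst2 at 263 and 227 (−0.21, −0.28 to −0.14). Bst2 was thus lower in DN4 in both genotypes. Isg15 in KI differed by cluster: it was at 28.3 CPM in DN3 and 44.8 in DN4 within cluster 3, but at 31.8 and 25.0 within cluster 4. In KI, cluster 3 had 138 cells in DN3 and 767 in DN4, and cluster 4 had 347 and 393. No member at 20 CPM or more was called in either, where 2.14% of 5278 features were called lower and 1.36% higher in WT, and 2.83% of 5194 lower and 1.83% higher in KI. In KI, TMM scaling moved the share of calls that were higher from 39.3% to 54.8%.

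Other genes of the pathway in clusters 0 and 1 lay on both sides of 0, and few were called, beside 2.25% of all features called lower and 1.06% higher. In each list with a measured gene, more genes lay below 0 than above, and the median was below that of all features (−0.01). Of receptors and kinases 0 of 6 measured were called (median −0.17), with the receptor genes Ifngr1 at −0.28 and Ifnar1 at −0.25. The kinase gene Jak1 was at 0.13 (0.04 to 0.22). The other IRF genes had 0 of 3 called, and Irf1 was at −0.28. Of 8 sensors and adaptors 0 were called (−0.05): Zbp1, a sensor of Z-form nucleic acids, was at −0.53 (−0.70 to −0.35), and Eif2ak2, the double-stranded RNA kinase gene, at 0.35 (0.14 to 0.56).

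Of 26 other induced genes at 20 CPM or more, 2 were called lower and 0 higher (median −0.19, 19 below 0), both of which reached 20 CPM only in WT. Oasl2 was at 22 CPM in WT against 12.6 in KI (−0.80, −1.09 to −0.52) and Ifi27l2a at 22.6 and 14.04 (−0.69, −0.97 to −0.41), while the membrane protein gene Ifitm2 was at 95.6 and 139 (0.54, 0.43 to 0.65). Of 9 GTPases of the interferon gamma response 1 was called lower (−0.22), Tgtp2 (at 20 CPM only in WT), at 31.5 and 14.3 CPM (−1.14, −1.40 to −0.88). All 13 measured genes of the MHC class I path were below 0 and 0 were called (−0.17), with H2-Q7 at −0.49 and B2m, the light chain gene, at −0.22. Among the enzymes that attach ISG15 0 of 2 were called, with Herc6 at −0.45. Of 5 negative regulators 1 was called, Socs3, a suppressor of cytokine signalling, higher in KI at 18.3 and 29.4 CPM (0.68, 0.44 to 0.93). Socs3 reached 20 CPM only in KI and so could be called only higher. Of the 4 negative regulators at 20 CPM in both profiles 0 were called. In the Ly6 family 0 of 4 were called, with Ly6c1 at −0.53 and Ly6e at −0.02.

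In cluster 2 the other induced genes had a median of 0.01, with 2 called lower and 1 higher of 29 (0 and 1 of the 27 at 20 CPM in both profiles), beside 3.75% and 1.17% of all features. In cluster 5, where 7.83% of all features were called lower and 2.74% higher, it was −0.41, with 9 of 29 called lower (3 of them among the 22 at 20 CPM in both profiles), among them Rnf213 at 68.9 CPM in WT against 31.8 in KI and Parp9 at 38.1 and 19.8, and 3 of 8 GTPases were called lower (−0.46). In clusters 3 and 4 of DN4 3 of 14 other induced genes were called lower (−0.24), beside 2.39% of all features lower and 0.447% higher: Sp100 (−0.74), Ifitm2 (−0.69) and Epsti1 (−0.66), the last 2 at 20 CPM only in WT. Gbp7, at 20 CPM only in KI, was the 1 of 4 GTPases called, higher in KI at 14.5 and 24.9 CPM. Ifitm2 was thus higher in KI in clusters 0 and 1 and lower in clusters 3 and 4 of DN4.

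Interferon genes themselves were barely read. Of 21 on the list only Ifng and Ifnz were in the matrix, and Ifng, the type II interferon, had 136 UMIs in WT and 56 in KI in clusters 0 and 1. Of 7 markers of plasmacytoid dendritic cells, which make type I interferon, the 5 measured all had UMIs, and their sum was 384 CPM in WT against 267.5 in KI. Most of it was Ccr9, a homing receptor gene that thymocytes also express, at 275 and 179 CPM. Spib had 625 and 343 UMIs, Cox6a2 97 and 49 and Flt3 24 and 7, while Tcf4 went the other way, with 659 and 716. Siglech and Klk1 of that list were not analysed here. Of 6 macrophage markers 4 had UMIs in WT and 5 in KI, at 26.8 and 32.3 CPM in sum. Most of that sum was Lyz2, with 295 UMIs in WT and 365 in KI. Cd68 went the other way, with 47 and 36, while C1qa was at 0 in both and Csf1r at 1 UMI in each. Hba-a2, of red cells, was at 0, and the B cell gene Cd79a had 5 UMIs in each. The part of these markers in the result was not tested.

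The annotation sets limits on some members. By GENCODE vM21 (GRCm38), exons of Irf7 (chromosome 7, 141262706 to 141266481, minus strand) overlap those of Phrf1 on the other strand, and exons of Irf9 (chromosome 14, 55603571 to 55610030) those of Rnf31 on the same strand. Rtp4 (chromosome 16, 23520291 to 23614222) overlaps Gm45338 and Usp18 (chromosome 6, 121245906 to 121270917) overlaps Gm44148, so reads there can be shared. No overlap was annotated for Isg15 (chromosome 4, 156199424 to 156200818), Bst2 (chromosome 8, 71534255 to 71537456), Stat2 (chromosome 10, 128270559 to 128292849), Ifit3 (chromosome 19, 34583531 to 34588731) and Ly6a (chromosome 15, 74994877 to 74998031). Rtp4 lies 14.5 Mb from Gsk3b on the same chromosome.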

How the data were processed

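The values deposited by the authors are UMI counts of 15653 genes in 10237 cells, with a table of each cell's library, cluster and cell cycle phase; the rules for filtering cells and genes, for clustering and for phase are not given in the sources used here. Cell Ranger is named in versions 3.1.0 and 6.0.1, with build mm10, per the submitters' processing notes; which of them made these counts is not given. T cell receptor libraries were not analysed here. No cell was removed.

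UMIs were summed per library and cluster and divided by the profile's total (CPM). Profiles needed 50 cells. Ratios carry exact conditional binomial intervals, levels exact Poisson and shares exact binomial (Clopper-Pearson) intervals at 95%, all of counting error only. Features with at least 20 CPM in either profile and a ratio of 1.5-fold were called apart. With 1 library per group no test was made. The ratio intervals were tested only on simulated independent counts, the case they assume. Their coverage where UMIs gather in few cells was not tested. Shares used cells thinned to 2000 UMIs. Doublets were called with Scrublet in scanpy 1.11.5 and kept, and TMM factors came from edgeR 4.0.16; 4 and 5 cells were called in the DN3 libraries, 0.139% and 0.152% of each, so the caller cannot be relied on there.

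The members and lists were chosen with earlier results of these data known. Named genes are the 9 members, up to 4 genes of each list with the largest ratio in clusters 0 and 1 of DN3 or clusters 3 and 4 of DN4, the 5 genes most like the members in pattern, and cell type markers. Cd96, Mid1, Arhgap31, Apobec3, Ifit1, Rsad2, Mx1, Rnf213, Parp9, Ifi208, Ifi44l and Gbp2b were named after their values were seen. Alternatives added after seeing the data were KI levels weighted by the cluster makeup of WT and KI cluster 0 alone. The values of 1 gene of the pathway lists are not reported here.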

Additional observations from a re-analysis of the deposited data

Results flagged for a closer look

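The difference between KI and WT went opposite ways in different groups of cells, with counting intervals on opposite sides of 0. The difference between the groups was not tested, since each rests on 1 library per genotype. The sum of the 9 members had a log2 ratio of KI over WT of 0.10 in the γδ T-like cluster 2 of DN4, beside −0.40 in clusters 0 and 1, −0.24 in clusters 3 and 4 and −0.14 in cluster 6 of DN3, and −0.21 in clusters 3 and 4 and −0.45 in cluster 5 of DN4. Bst2 was at 0.25 in cluster 2, beside −0.33 in clusters 0 and 1 of DN3 and −0.08 (−0.15 to −0.02) in clusters 3 and 4 of DN4. With TMM scaling that last value was −0.012, with an interval that included 0 (−0.08 to 0.06). Taken apart, with TMM scaling, it was −0.04 (−0.14 to 0.05) in cluster 3 and −0.13 (−0.24 to −0.03) in cluster 4. Rtp4 was at 0.33 in cluster 2, beside −0.36 in clusters 0 and 1 of DN3 and −0.56 in clusters 3 and 4 of DN4. In cluster 2 the sum stayed above 0 under TMM scaling (0.12), without doublets (0.11) and in G1 cells (0.07). It also did so without the 1% of cells with the largest share of member UMIs (0.17) and with cells weighted equally (0.14).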

How the results depend on the processing

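Each ratio was recomputed under the alternatives, and most stayed within the main counting interval. Among the comparisons described, the sum of the members moved beyond it in these cases: KI over WT in clusters 0 and 1 of DN3 was −0.53 with KI cells of cluster 0 alone; cluster 6 of DN3 was −0.54 in G1 cells only; the whole DN3 library was −0.35 with the cluster makeup of WT; clusters 3 and 4 of DN4 were −0.14 with TMM scaling and −0.29 both without the 1% of cells with most and with cells weighted equally; and the whole DN4 library was −0.076 with TMM. For DN4 over DN3, cluster 4 alone gave −0.26 in WT against −0.39 in KI, and it was −0.011 in KI with TMM. The cause was not tested. Ifit3 in clusters 0 and 1 of DN3 reversed to −1.29 without the richest 1% of cells and to −4.69 with KI cells of cluster 0 alone. Ratios of shares of cells reversed for Stat2 in clusters 3 and 4 of DN3 (−0.21 without thinning) and of DN4 (−0.021 without thinning, −0.18 at 4000 UMIs), and for Ly6a in cluster 6 (−0.39 without thinning, −0.28 at 4000 UMIs), all on few cells. In clusters 0 and 1, features called lower and higher numbered 134 and 63, beside 28 and 9 at 2-fold and 290 and 178 with a minimum of 5 CPM. Over all comparisons, each of the 28 counts of features moved by over 1.5 times under both of those settings, 6 did with TMM scaling and 0 when the interval had to exclude no difference. No paired analysis was possible because each group has 1 library. Depth limits Ifit3, with 27 and 49 UMIs in clusters 0 and 1 of DN3.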

Other observations

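Some induced genes below 20 CPM in clusters 0 and 1 differed sharply between genotypes; they were singled out after their values were seen. Gbp2b, a guanylate-binding GTPase gene, had 0 UMIs in WT clusters 0 and 1 of DN3 and in WT clusters 2, 3 and 4, and 5 of DN4, while in KI it had 26 UMIs in clusters 0 and 1 of DN3 and 14 in cluster 2 of DN4. Ifi44l had 0 UMIs in the same WT groups and 17 in KI clusters 0 and 1 of DN3. Ifi208 was lower in KI, with 59 UMIs in WT and 3 in KI in clusters 0 and 1 of DN3, 34.2 and 9.96 CPM in cluster 2 of DN4 (log2 ratio −1.78, −2.28 to −1.30) and 38.7 and 9.90 in cluster 5 (−1.97, −2.92 to −1.12). In cluster 2, Ifi27l2a stood at 109 CPM in WT against 199 in KI (0.87, 0.70 to 1.03), while in clusters 0 and 1 of DN3 it was lower in KI.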
